A study of Mus musculus with 10 samples.

Results

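Among the 41743 gene names counted in K7M2 cells, a mouse osteosarcoma line, 67 genes stood on opposite sides of an ezrin-disrupted line when 2 mutant forms of ezrin, T567A and T567D, were expressed in it. They were chosen by their measured levels. A gene qualified if its mean reached 5 CPM (the count divided by the library total, times 1e6) in the empty-vector, T567A or T567D line, which 10099 names did. In addition, its log2(mean CPM + 0.5) had to shift by 0.4 or more from the empty-vector line in both mutant lines, in opposite directions, with both empty-vector libraries between the T567A and the T567D libraries. In 13 of the 67 genes the T567A line was highest and the T567D line lowest, and these are called T567A-high below. In the other 54, called T567D-high, the order was the reverse. The levels in these 3 lines and the distances between them made the choice, so they are given as a description with no test. At the edge of the rule, the smaller of the 2 shifts was 0.40 for Runx3 and Gm42715, which qualified, and 0.397 for Tigd5 and 0.394 for Pde4a, which did not. Opposite shifts of any size with the same ordering of libraries were found in 1439 of the 10099 names, with T567A highest in 657 and T567D highest in 782.

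Ezrin is a linker protein of the cell cortex, which binds membrane proteins with its head and actin filaments with its tail. In the closed form head and tail mask each other, and a phosphate on threonine T567 holds the molecule open. The T567A protein cannot receive that phosphate, and T567D carries an acidic residue in its place. In osteosarcoma, ezrin is known for its association with metastatic spread.

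RNA came from 5 lines that had received no treatment, with 2 libraries each. The parental line was unedited K7M2. The other 4 carried CRISPR/Cas9-disrupted ezrin and were stably transfected with an empty vector (COL3E in the labels), wild-type ezrin (COL3WT), T567A ezrin (COL3A) or T567D ezrin (COL3D). All 4 therefore share the disruption, the transfection and the COL3 tag, which may name 1 clone. As each construct is represented by 1 stable line, construct and line cannot be told apart. The labels leave unsaid whether the libraries of a line are separate cultures, so every p-value below reflects how these libraries vary, possibly for technical reasons only. A lower level in such bulk RNA can mean fewer expressing cells or less RNA per cell, and these cannot be told apart.

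Total counts ran from 14679424 in T567A replicate 2 to 18230763 in T567A replicate 3. The share of mitochondrial transcripts was 1.9% and 1.44% in T567A and 0.844% to 1.33% elsewhere. Ezr, the disrupted gene, was lowest in empty-vector libraries (72.5 and 73.1 CPM), followed by parental (159 and 162), T567D (207 and 185), wild-type (235 and 238) and T567A libraries (244 and 249). Of the other members of its protein family, moesin was not among the 67 genes but had the T567D-high order: Msn was at 530 and 529 CPM in empty-vector, 380 and 370 in T567A and 651 and 687 in the T567D libraries. Radixin did not follow it in full, as its T567D libraries (Rdx at 251 and 231 CPM) overlapped the empty-vector ones (242 and 250), with 218 and 222 in those of T567A. The osteoblast genes Runx2 (32.4 to 42 CPM), Col1a2 (2903 to 3441 CPM) and Spp1 (161 to 309 CPM) were present in all libraries, whereas Sp7, Bglap and Ibsp never passed 0.274 CPM and Dlx5 had no count. Col1a1 differed more between lines, at 1753 and 1782 CPM in parental, 321 and 328 in empty-vector and 277 and 252 in wild-type libraries. It was at 590 and 600 CPM in T567A and 685 and 809 in T567D libraries. Markers of endothelial cells (9 genes, Emcn and Tie1 at 0, summed level 1.82 to 3.16 CPM) and of epithelial cells (9 genes, Epcam, Krt19 and Cldn4 at 0, 0.174 to 1.02 CPM) were near 0. The leukocyte list of 14 genes summed to 1187 to 1706 CPM, of which Csf1r alone gave 1142 to 1657, with Itgax, Adgre1 and Cd3e among those at 0.

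**Figure D1:**
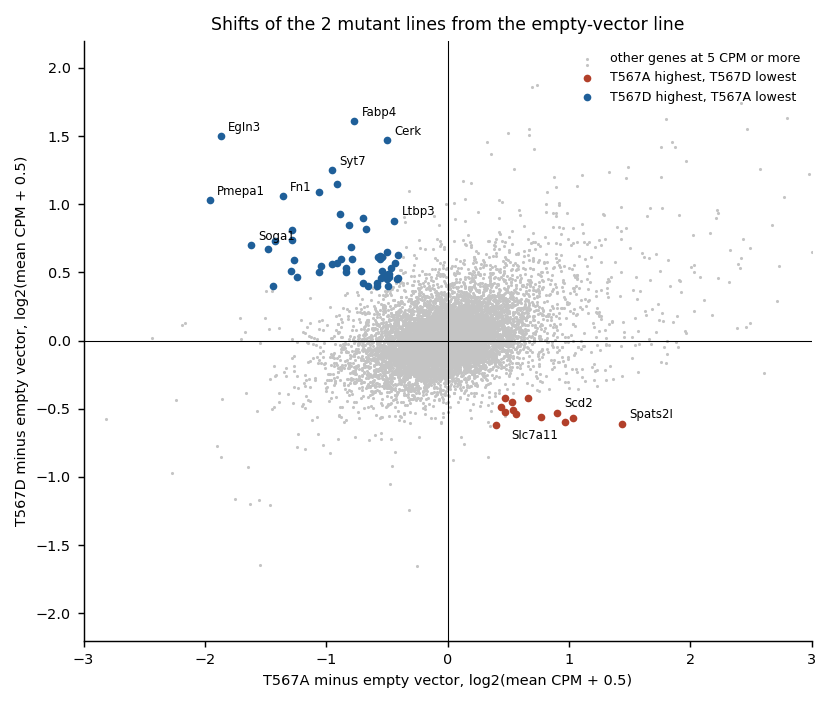
Shift of each gene from the empty-vector line in the T567A line (horizontal axis) and the T567D line (vertical axis), both in log2(mean CPM + 0.5), for genes at 5 CPM or more. The 13 T567A-high genes (red) lie at the lower right and the 54 T567D-high genes (blue) at the upper left, with some of the most displaced named. The axes leave out 8 of the grey genes.

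The largest opposite shift belonged to Egln3 (chr12:54178981-54203860, minus strand, GRCm38), which encodes a prolyl hydroxylase that marks hypoxia-inducible factor for degradation when oxygen is present. Its level was 7.7 and 9.46 CPM in the empty-vector libraries, 1.84 and 2.14 in T567A, 24.6 and 25.7 in T567D, 16.3 and 15.3 in wild-type and 14.1 and 13.3 in parental libraries. The T567D mean was 12.7 times the T567A mean, and the libraries of the 3 disrupted lines that the rule used did not overlap. Parental and wild-type libraries lay between the empty-vector and the T567D libraries. Its promoter is shown here because of this shift, together with those of 3 genes described below: Ltbp3, a T567D-high matrix gene, and Idi1 and Slc7a11, T567A-high genes of cholesterol synthesis and cystine import. The 4 windows were copied from RefSeq (GRCm38.p6) and run from 250 bases before to 50 bases after the RefSeq start, written 5′ to 3′ on the gene's strand. Capitals mark any of 5 motifs searched on both strands: the hypoxia core ACGTG, the AP-1 site TGANTCA, the CCAAT box CCAAT, the TEAD site GGAATG and the interferon element GAAANNGAA.
Egln3: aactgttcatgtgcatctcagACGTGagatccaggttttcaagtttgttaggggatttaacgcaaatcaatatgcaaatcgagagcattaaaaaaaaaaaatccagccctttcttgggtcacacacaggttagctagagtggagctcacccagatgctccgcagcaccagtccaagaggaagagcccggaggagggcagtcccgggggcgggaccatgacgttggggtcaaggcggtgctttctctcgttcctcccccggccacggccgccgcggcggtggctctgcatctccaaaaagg
Ltbp3: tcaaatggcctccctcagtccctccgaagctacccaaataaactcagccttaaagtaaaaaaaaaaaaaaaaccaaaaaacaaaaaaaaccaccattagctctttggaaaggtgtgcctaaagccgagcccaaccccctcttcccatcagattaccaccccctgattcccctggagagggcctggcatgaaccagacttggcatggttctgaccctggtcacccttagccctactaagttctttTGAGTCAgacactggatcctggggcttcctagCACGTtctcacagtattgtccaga
Idi1: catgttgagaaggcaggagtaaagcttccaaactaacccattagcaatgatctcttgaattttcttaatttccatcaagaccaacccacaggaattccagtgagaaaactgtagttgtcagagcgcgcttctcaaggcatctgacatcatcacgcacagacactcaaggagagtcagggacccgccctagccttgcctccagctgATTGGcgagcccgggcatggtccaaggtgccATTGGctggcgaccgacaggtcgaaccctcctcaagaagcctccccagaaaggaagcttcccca
Slc7a11: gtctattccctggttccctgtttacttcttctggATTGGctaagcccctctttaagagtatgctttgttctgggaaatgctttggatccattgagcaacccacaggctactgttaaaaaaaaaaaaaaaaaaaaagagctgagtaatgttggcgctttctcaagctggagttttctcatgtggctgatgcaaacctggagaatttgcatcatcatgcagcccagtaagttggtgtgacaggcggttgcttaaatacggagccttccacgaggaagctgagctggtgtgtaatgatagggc

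These windows are chr12:54203825-54204124 on the minus strand for Egln3, chr19:5740650-5740949 on the plus strand for Ltbp3, chr13:8885356-8885655 on the plus strand for Idi1 and chr3:50443564-50443863 on the minus strand for Slc7a11. The Egln3 window holds a hypoxia core at base 22, that is 229 bases upstream of the start. The Ltbp3 window holds an AP-1 site at base 245, just before the start, and a hypoxia core at base 277, after it. CCAAT boxes, here on the other strand as ATTGG, stand at bases 206 and 237 in the Idi1 window and at base 35 in the Slc7a11 window. Such matches are letters in a window and do not show binding.

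Of the 67 genes, 41 had a RefSeq promoter in the table used, 8 of them T567A-high and 33 T567D-high, and 10 had more than 1, in which case a motif in any of them was counted. The hypoxia core was present for 7 of the 33 T567D-high genes (21.2%) and 0 of the 8 T567A-high genes, against 29.5% of the 9735 tested genes with a promoter. The CCAAT box was found for 4 of 8 T567A-high genes (50%) and 9 of 33 T567D-high genes (27.3%), against 43.9%. The AP-1 site stood in 4 of 33 T567D-high promoters (12.1%), those of Ltbp3, P2ry14, St6gal1 and Tmem231, and in 0 of the 8 others, against 6.44%. TEAD sites were present for 5 of 33 (15.2%) and 0 of 8, against 14.4%, and interferon elements for 3 of 33 (9.09%) and 1 of 8 (12.5%), against 8.78%.

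Several T567D-high genes encode extracellular matrix proteins. Fn1 (chr1:71585520-71653200, minus strand), which encodes the adhesive matrix protein fibronectin, was at 118 and 140 CPM in empty-vector, 49.3 and 50.6 in T567A, 266 and 273 in T567D, 176 and 166 in wild-type and 80 and 101 in parental libraries. Its T567D mean was 5.4 times its T567A mean, and parental cells lay between the T567A and empty-vector lines. Ltbp3, which encodes a protein that holds latent TGF-beta in the matrix, was at 152 and 156 CPM in empty-vector, 109 and 117 in T567A, 279 and 288 in T567D, 238 and 224 in wild-type and 195 and 207 in parental libraries. The 5 lines did not overlap in Ltbp3, and the wild-type line stood next to T567D. Fbn1, the gene of the microfibril protein fibrillin-1, had a narrower spread, with 152 and 176 CPM in empty-vector, 133 and 114 in T567A and 214 and 238 in the T567D libraries. The collagen genes Col6a2 and Col7a1 had T567D means 3.67 and 5.45 times their T567A means. Col6a2 was at 2.72 and 3.07 CPM in T567A against 7.53 and 7.55 in empty-vector and 11.1 and 10.2 in T567D libraries.

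Pmepa1, which encodes a membrane protein that restrains TGF-beta signalling and is itself induced by it, had the deepest T567A shift of all 67 genes (-1.96 log2). Its level was 24.2 and 21.7 CPM in empty-vector, 5.38 and 5.65 in T567A, 38.6 and 56 in T567D, 29.3 and 23.5 in wild-type and 32 and 33.7 in parental libraries. The T567D libraries were far apart, but the lower of them exceeded all other libraries. Genes that modify or carry sulfated sugar chains were also T567D-high: Chst15, a chondroitin sulfotransferase, Sulf2, which removes sulfate from heparan sulfate, and Srgn, the proteoglycan serglycin. Sulf2 was at 13.8 and 13.3 CPM in empty-vector, 7.63 and 8.61 in T567A, 26.9 and 24.4 in T567D and 13.7 and 12.8 in wild-type libraries, all below the 67.6 and 66.7 of parental cells. Mmp19, a matrix metalloproteinase gene, had a T567D mean 2.41 times its T567A mean.

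Among cell-surface genes, Ncam1, which encodes a homophilic adhesion molecule, was at 31.5 and 32.3 CPM in empty-vector, 12 and 13.7 in T567A, 49.9 and 57.4 in T567D, 40.5 and 36.1 in wild-type and 69.8 and 70.3 in parental libraries. Lrp1, an endocytic receptor that clears proteases and matrix proteins, was at 196 and 223 CPM in empty-vector, 127 and 115 in T567A, 299 and 334 in T567D, 255 and 253 in wild-type and 301 and 362 in parental libraries. In Ncam1 the parental libraries exceeded the T567D libraries, and in Lrp1 they overlapped them. Ptgfrn, a tetraspanin partner, was at 121 and 130 CPM in empty-vector, 49.4 and 52.5 in T567A and 177 and 181 in the T567D libraries. Apcdd1, whose product inhibits Wnt signalling at the membrane, had the reverse relation to parental cells: 3.56 and 4.33 CPM there against 6.54 and 8.5 in T567A, 14.3 and 14.3 in empty-vector, 24.3 and 31.3 in T567D and 29.3 and 23.9 in wild-type libraries. Guidance factors in the set were Ntn4 (a netrin) and Sema7a (a semaphorin), with T567D means 2.88 and 3.09 times their T567A means. Boc (a hedgehog co-receptor), P2ry14 (a receptor for UDP-sugars), Pkd1 (polycystin-1) and St6gal1 (a sialyltransferase) ranged from 1.92 to 2.93 times.

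Some further T567D-high genes are described together because their products are known to act at the cytoskeleton or in vesicle traffic, although none of the 67 genes belongs to the actin cytoskeleton list. Hip1r, which couples clathrin-coated pits to actin, was at 7.19 and 6.97 CPM in empty-vector, 2.93 and 3.35 in T567A, 15.5 and 15.7 in T567D, 14.2 and 9.79 in wild-type and 11.5 and 12.3 in parental libraries. Syt7, a calcium sensor of exocytosis, was at 5.66 and 4.64 CPM in empty-vector, 2.18 and 2.69 in T567A, 14.5 and 11.4 in T567D, 9.2 and 8.86 in wild-type and 71.5 and 68.1 in parental libraries. All disrupted lines were far below the parental level in Syt7. Myo7a, an unconventional myosin, was low, at 4.98 and 6.97 CPM in empty-vector, 2.04 and 1.81 in T567A and 9.08 and 11.4 in the T567D libraries. Fgd1 (an exchange factor for the GTPase Cdc42), Rflnb (which binds the actin cross-linker filamin), Anxa8 (a membrane-binding annexin) and Capn5 (a calpain protease) had smaller T567D to T567A ratios, between 1.96 and 2.25. In Capn5 the T567A libraries, at 1.91 and 3.29 CPM, came close to the empty-vector libraries at 3.74 and 4.18.

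Enzyme and nuclear genes completed the T567D-high set. Alpl, the alkaline phosphatase of mineralising osteoblasts, was at 5.21 and 6.09 CPM in empty-vector, 2.18 and 3.35 in T567A, 14.1 and 12.1 in T567D, 10.2 and 9.44 in wild-type and 2.2 and 1.65 in parental libraries. Fabp4, a fatty-acid carrier best known from adipocytes, was at 1.98 and 1.97 CPM in empty-vector, 1.29 and 0.603 in T567A and 7.85 and 6.31 in the T567D libraries. The list of 12 chondrocyte and adipocyte markers to which it belongs summed to 3.66 to 4.24 CPM in empty-vector and 2.58 to 3.95 in T567A libraries. The sums were 9.83 to 11.5 CPM in T567D and 7.58 to 8.13 in wild-type libraries, where Fabp4 was at 3.38 and 3.26. All these sums include Fabp4, the highest gene of the list, so they are not independent of the rule. Acan, Col9a1, Adipoq, Plin1 and Cidec were at 0 in all libraries. Whether such cells had a part in the Fabp4 levels was not tested. Cerk, ceramide kinase, was nearer to empty vector in T567A than in T567D, at 1.64 and 1.63 CPM in empty-vector, 1.02 and 0.987 in T567A and 5.74 and 5.12 in the T567D libraries, with 9.2 and 9.68 in parental cells. Transcription factor genes were Vdr (the vitamin D receptor), Runx3, Irx3 and Ahrr (a repressor of the aryl hydrocarbon receptor). Zfp469 is named as a zinc finger gene, but its entry in the GENCODE M21 annotation is a non-coding RNA (lincRNA). Together these genes had T567D to T567A ratios of 2.12 to 3.08. Signalling genes included Dusp4, a phosphatase that turns off MAP kinases (5.15 and 5.34 CPM in empty-vector, 3.41 and 3.4 in T567A, 8.55 and 8.16 in T567D libraries), Gnao1 (a G protein subunit) and Castor2 (of the arginine-sensing CASTOR family). The rest were Soga1, Kctd17, Lrrc75b, Apbb1, Azin2, Map1lc3a, Fam89b, Insyn1, Tmem231, F8a and B020010K11Rik, with ratios from 1.96 in Insyn1 to 6.09 in Soga1. Fam89b was the loosest of these, at 22.9 and 41.2 CPM in T567A against 46.9 and 42.5 in empty-vector libraries.

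**Figure D2:**
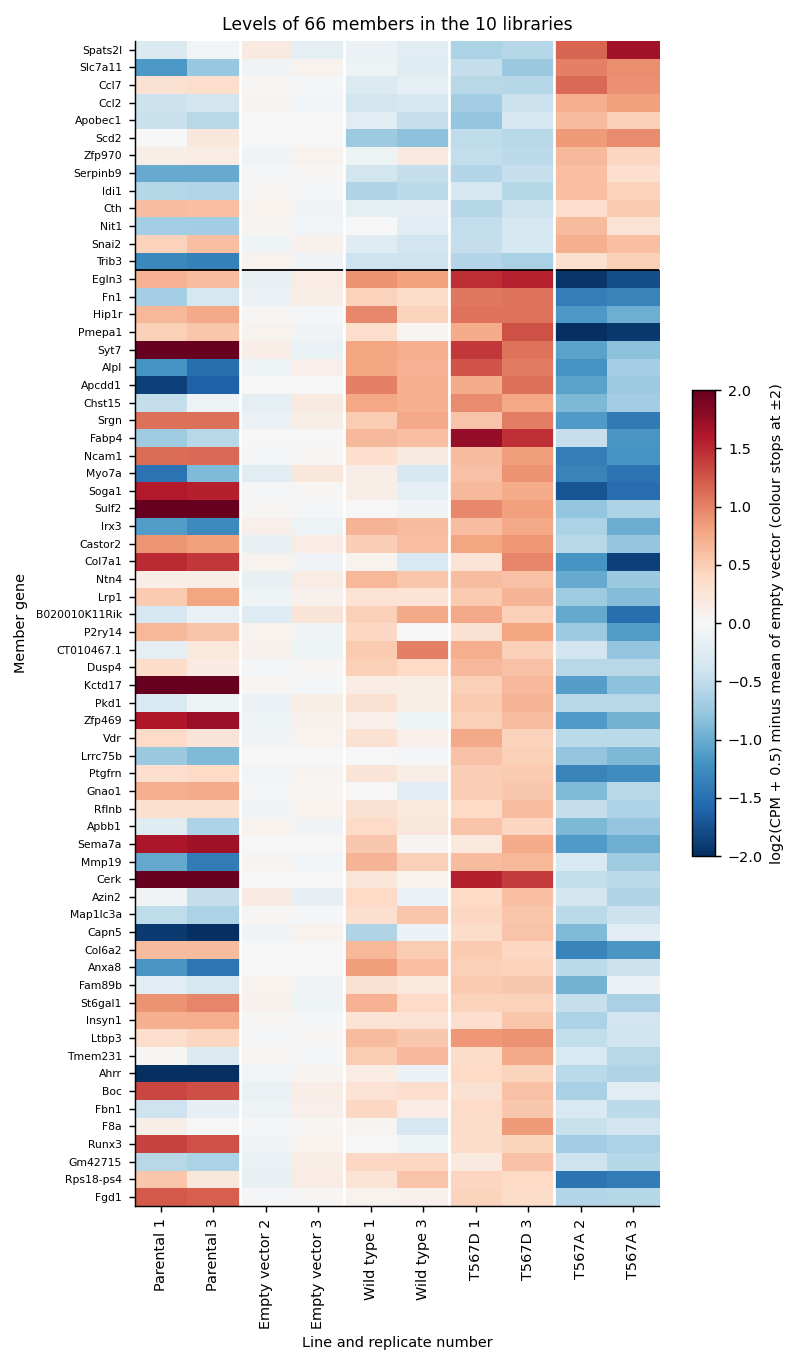
Level of 66 of the 67 genes (rows) in the 10 libraries (columns), as log2(CPM + 0.5) minus the mean of the empty-vector libraries, with colours that stop at 2 units. The line separates the 13 T567A-high genes (top) from 53 T567D-high genes. In most rows both wild-type libraries lie on the T567D side of the empty-vector libraries, whereas the parental columns go both ways.

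The T567A-high set was smaller and held lipid, amino-acid and chemokine genes. Scd2 (chr19:44293674-44306864, plus strand), a stearoyl-CoA desaturase that makes monounsaturated fatty acids, was at 412 and 405 CPM in empty-vector, 741 and 790 in T567A, 288 and 277 in T567D, 248 and 231 in wild-type and 411 and 478 in parental libraries. The wild-type line was below all 3 lines used by the rule, and the parental libraries overlapped the empty-vector ones. Idi1 (chr13:8885501-8892451, plus strand), an isomerase that prepares the isoprenoid units of cholesterol, was at 90.7 and 88.2 CPM in empty-vector, 136 and 123 in T567A, 70.2 and 60.2 in T567D, 58.6 and 62.1 in wild-type and 60.2 and 59.2 in parental libraries. Parental, wild-type and T567D libraries of Idi1 lay together, below both empty-vector libraries.

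Ccl2 and Ccl7 encode chemokines that attract monocytes and lie 8259 bases apart on chromosome 11. Ccl2 was at 166 and 154 CPM in empty-vector, 265 and 282 in T567A, 98.6 and 119 in T567D, 124 and 128 in wild-type and 119 and 124 in parental libraries. Ccl7 was at 48.9 and 47.8 CPM in empty-vector, 107 and 91.3 in T567A, 32.6 and 32.3 in T567D, 39.8 and 42 in wild-type and 59.9 and 61.5 in parental libraries. Both genes shared the order of the 4 disrupted lines, but parental cells were below the empty-vector line in Ccl2 and above it in Ccl7. There were 3 further pairs of the 67 genes within 1000000 bases of each other, all of the T567D-high set: Myo7a and Capn5 (2035 bases apart), Fam89b and Ltbp3 (11251) and Sema7a and Insyn1 (525738).

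Cystine and sulfur amino acids link Slc7a11, which imports cystine in exchange for glutamate, and Cth, which makes cysteine from cystathionine. Slc7a11 was at 18.9 and 20.9 CPM in empty-vector, 40.6 and 38.5 in T567A, 14.1 and 11.7 in T567D, 18.4 and 16.8 in wild-type and 8.69 and 11.6 in parental libraries. Cth was at 10.7 and 9.58 CPM in empty-vector, 13.1 and 14.8 in T567A, 6.67 and 7.44 in T567D and 15.7 and 15.7 in parental libraries. Trib3, a pseudokinase gene of the ATF4 stress response, was at 48.8 and 44.5 CPM in empty-vector, 58.4 and 65.2 in T567A, 30.9 and 29.5 in T567D, 35 and 34.9 in wild-type and 18.9 and 18 in parental libraries. Slc7a11 and Trib3 were therefore lower in parental cells than in any of the 3 lines of the rule, and Cth was higher.

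Snai2, the transcriptional repressor Slug, was at 17.3 and 19.4 CPM in empty-vector, 30.5 and 28.1 in T567A, 13 and 14.3 in T567D, 15.4 and 14 in wild-type and 25.4 and 28.1 in parental libraries, so the parental libraries lay near those of T567A. Serpinb9, an inhibitor of granzyme B, was at 21.8 and 22.8 CPM in empty-vector, 33.9 and 28.4 in T567A and 14.8 and 16.1 in the T567D libraries. The remaining T567A-high genes were Apobec1 (a cytidine deaminase that edits RNA), Nit1 (an amidase), the zinc finger gene Zfp970 and Spats2l. Spats2l had the largest T567A shift of this set (1.44 log2), from 2.43 and 1.8 CPM in empty-vector to 5.31 and 7.84 in T567A libraries, and its T567A libraries were far apart.

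**Figure D3:**
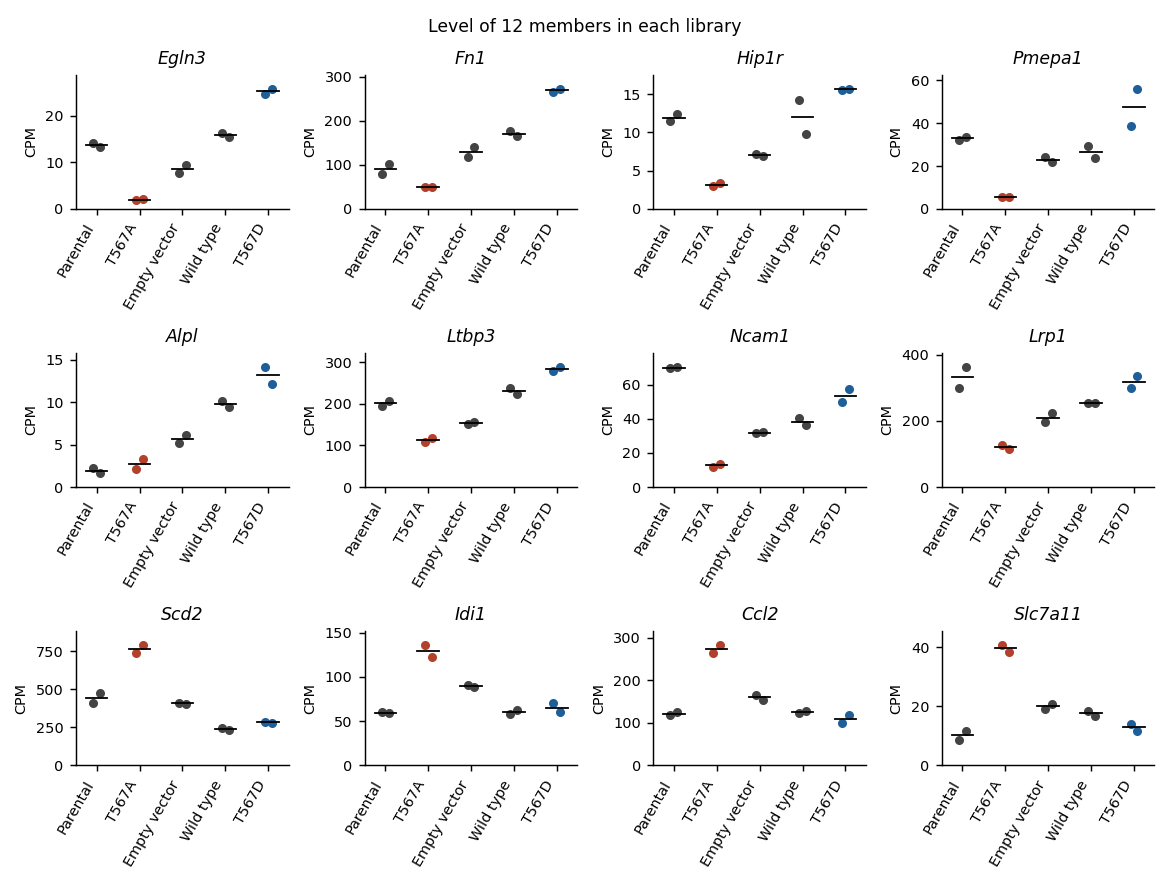
CPM of 12 of the 67 genes in each library, with 1 panel per gene, an axis from 0, 2 points per line and a bar at their mean. Red marks T567A and blue T567D libraries. In the upper 8 panels the means climb from T567A through empty vector and wild type to T567D, and in the lower 4 T567A is highest, while the parental position differs from gene to gene.

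The counts of some of these genes are uncertain, because whether reads were assigned by strand is not given in the sources used here. By symbol, 65 of the 67 matched GENCODE M21 and 63 were protein coding there. Another gene overlaps on the same strand in 18 of the 67 and on the other strand in 33, among them Fgfr2 with Chst15 and Srcap with Gm42715, a model that spans Srcap. CT010467.1 is annotated as ribosomal RNA and Rps18-ps4 is named as a pseudogene copy of a ribosomal protein gene, so their counts may include reads of other copies. Their T567D means were 2.44 and 3.73 times their T567A means, and that of Gm42715 1.89 times.

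The 2 sets had unlike transcripts in base composition, which the rule did not use. The median GC content of the longest annotated transcript was 44.2% for the 13 T567A-high genes, 54.9% for the 52 of 54 T567D-high genes with a transcript and 49.3% for the 10003 of 10099 genes with one. Median transcript length was 2265, 4474 and 3496 bases in the same order. Over all genes at 5 CPM or more, the T567A line itself shifted with GC content. In 5 bins of GC content with equal numbers of genes, from lowest to highest, the median T567A shift was 0.16, 0.04, -0.03, -0.10 and -0.23 log2, whereas the T567D medians ran from -0.03 to 0.03 and the wild-type medians from -0.01 to 0.01. Of the T567D-high genes 26 fell in the bin with the highest GC content and 3 in that with the lowest, and of the T567A-high genes 1 and 6. With the median of its GC bin subtracted from each shift, 51 genes met the rule, 45 of them among the 67, with 14 T567A-high and 37 T567D-high. The GC trend and the mitochondrial share of the T567A libraries come with that line and cannot be told apart from it. Their part in the T567A shifts of single genes was not tested.

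**Figure D4:**
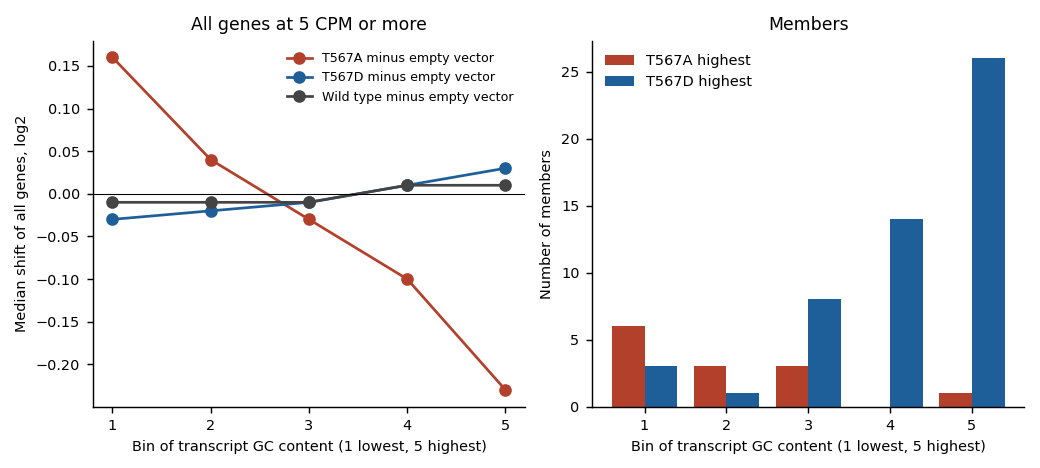
Left, median shift from the empty-vector line (log2) of all genes at 5 CPM or more in each of 5 bins of transcript GC content, for the T567A, T567D and wild-type lines. Right, number of T567A-high (red) and T567D-high (blue) genes in each bin. The T567A median falls from 0.16 to -0.23 while the other 2 lines stay within 0.03 of 0, and 26 of the T567D-high genes are in the highest bin.

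The wild-type libraries did not enter the rule, and their levels give the position of the line with unmutated ezrin. In 50 of the 67 genes both wild-type libraries lay on the T567D side of both empty-vector libraries, in 1 (Capn5) on the T567A side, and in 16 they were on neither. Of the T567A-high genes 10 of 13 had both wild-type libraries below the empty-vector ones, against 31.7% of all genes at 5 CPM or more. Of the T567D-high genes 40 of 54 had both above, against 31.2% of all. As a share of the T567D shift, the wild-type shift had a median of 62% in the T567A-high set, from -9.81% in Zfp970 to 144% in Scd2, and 58.3% in the T567D-high set, from -72.2% in Capn5 to 153% in Anxa8. It passed the full T567D shift in 2 and 10 genes. These positions and shares are a description only: the empty-vector libraries stand in both the rule and this comparison, and the T567D shift that the share is taken of had to reach 0.4 by the rule.

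In the fit over all genes, 31 of the 67 passed the test between the wild-type and the empty-vector line: 7 T567A-high genes fell, 24 T567D-high genes rose and 36 did not pass (edgeR quasi-likelihood test, adjusted p under 0.05 over 12595 genes). The same 2 empty-vector libraries helped to choose the genes, so these p-values and the directions they come with are not independent of the rule and are given as values of the chosen genes. Of all tested genes 8.25% were higher and 7.36% lower. The median change was -0.35 in the T567A-high set, 0.30 in the T567D-high set and -0.01 over all tested genes. Scd2 fell most (-0.80 ± 0.068 SE, adjusted p = 7.6e-08), followed by Idi1 (-0.59 ± 0.077, adjusted p = 1.9e-05). Among chemokine and stress genes, Trib3 fell (-0.44 ± 0.081, adjusted p = 7.7e-04), as did Ccl2 (-0.37 ± 0.074, adjusted p = 0.0017). Of the genes that rose, Apcdd1 (0.87 ± 0.13, adjusted p = 2.2e-04) and Egln3 (0.86 ± 0.12, adjusted p = 3.5e-05) led, and Ltbp3 (0.56 ± 0.062, adjusted p = 2.4e-06) was the most precise. Syt7, Anxa8, Irx3 and Ntn4 rose by 0.78, 0.71, 0.65 and 0.60. These 11 genes kept their calls under each of the 13 other settings tried.

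Weaker calls included Fn1 (0.38 ± 0.091, adjusted p = 0.009), which was lost without empty-vector replicate 2 or wild-type replicate 1 (adjusted p up to 0.13 over all settings), and Alpl (0.77 ± 0.16, adjusted p = 0.0023), lost under 2 of 13 settings, among them without empty-vector replicate 2 (up to 0.11). Hip1r (0.73 ± 0.15, adjusted p = 0.0019) lost its call without wild-type replicate 1 (0.44, adjusted p up to 0.1), and Ccl7 (-0.27 ± 0.081, adjusted p = 0.027) under 7 of 13 settings (up to 0.28). Serpinb9, which fell slightly more than Trib3 (-0.46 ± 0.1, adjusted p = 0.0039), lost its call under 2 of 13 settings. Several genes with large shifts in the mutant lines did not pass in the wild-type line: Pmepa1 was at 0.18 ± 0.17 (adjusted p = 0.54), Cerk at 0.18 ± 0.24 (0.7), Sulf2 at -0.06 ± 0.1 (0.76), Soga1 at -0.05 ± 0.14 (0.87) and Slc7a11 at -0.20 ± 0.12 (0.25). Without empty-vector replicate 2 the number of called genes was 17, and without wild-type replicate 3 it was 19.

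**Figure D5:**
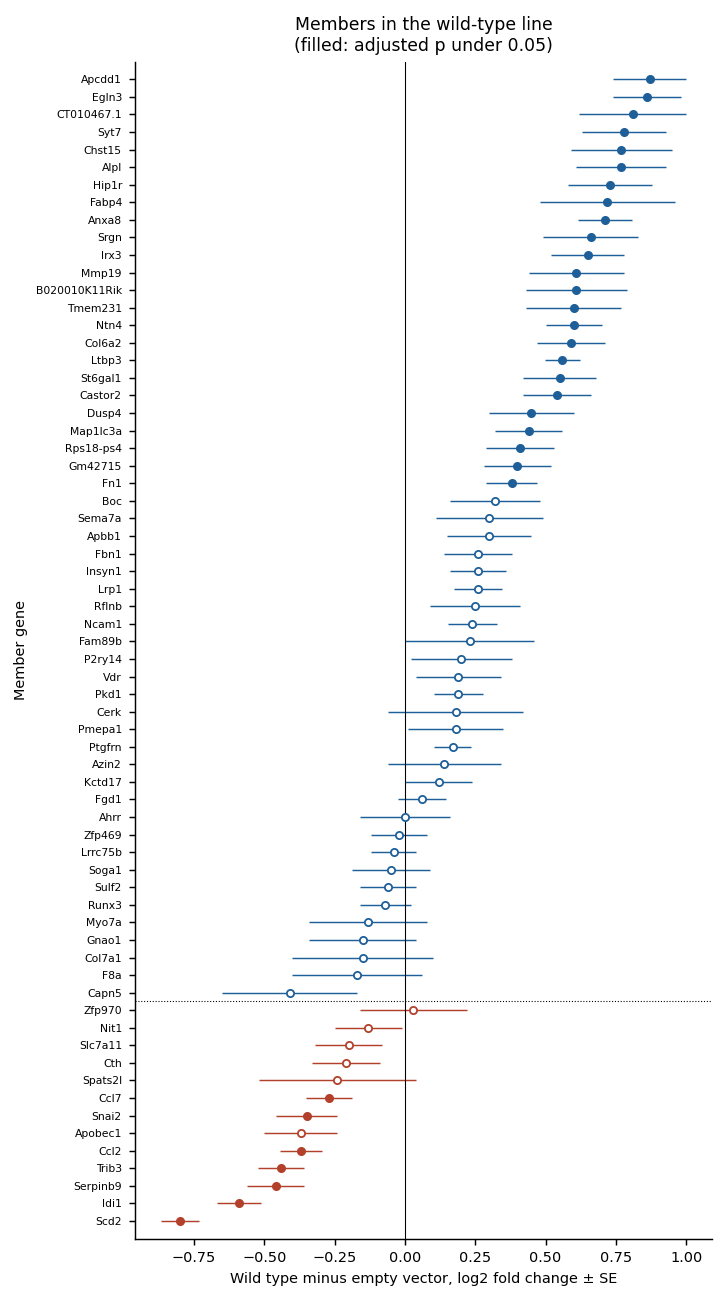
Change of 66 of the 67 genes in the wild-type line from the empty-vector line, as log2 fold change with its standard error. Filled points passed an adjusted p of 0.05. The T567D-high genes (blue, top) hold 24 filled points, all right of 0, and the T567A-high genes (red, bottom) hold 7, all left of 0.

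Parental cells went both ways in each of the 2 sets. Their position is given against the empty-vector libraries, which also entered the rule, so it is a description only. Both parental libraries lay on the T567D side of the empty-vector libraries in 37 of the 67 genes, on the T567A side in 20 and on neither in 10. For the T567D-high genes this means above the empty-vector line in 30 and below it in 16 of 54, where 35.5% and 44.9% of all genes at 5 CPM or more lay above and below. For the T567A-high genes, 7 were below and 4 above. Parental levels lay above all 6 libraries of the 3 lines in T567D-high genes such as Syt7, Sulf2, Kctd17, Soga1, Zfp469, Runx3, Ncam1 and Col7a1. They lay below all 6 in Ahrr, Capn5, Apcdd1, Irx3, Mmp19 and Anxa8. Among T567A-high genes they lay above all 6 in Cth and below all 6 in Nit1, Trib3, Slc7a11 and Serpinb9. How often such positions occur over all genes was not counted, so they are not read as a trait of the 67.

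The empty-vector line differed from parental cells in 53 of the 67 genes, 21 higher and 32 lower, beside 27.4% higher and 27.2% lower among all tested genes. In the T567D-high set 14 were higher, 28 lower and 12 not called, and in the T567A-high set 7, 4 and 2. Ahrr was at 0.282 and 0.0569 CPM in parental cells, 5 counts and 1 count, against 5.94 and 6.44 in empty-vector libraries (5.09 ± 0.34, adjusted p = 3.3e-11). With so few parental counts its size was uncertain, at 6.55 without parental replicate 1 and 4.36 without parental replicate 3. The next largest increases were in Capn5 (2.90 ± 0.35), Apcdd1 (1.82 ± 0.18) and Alpl (1.51 ± 0.21, adjusted p = 4.2e-06). Syt7 (-3.80 ± 0.12), Kctd17 (-2.65 ± 0.1), Cerk (-2.57 ± 0.18) and Sulf2 (-2.35 ± 0.088) had the largest decreases. This comparison also uses the empty-vector libraries.

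Wild type against parental is the only comparison here whose libraries took no part in the rule, and in it the 67 genes had no shared direction. Of the 67, 25 were higher, 24 lower and 18 not called, beside 27.7% higher and 28.5% lower among all tested genes. In the T567A-high set 4 were higher and 4 lower (median -0.05), and in the T567D-high set 21 and 20 (median 0.02, against 0.00 over all tested genes). Higher in the wild-type line were Ahrr (5.09 ± 0.34, but 6.56 without parental replicate 1 and 4.37 without parental replicate 3), Apcdd1 (2.69 ± 0.17), Capn5 (2.49 ± 0.37), Alpl (2.27 ± 0.2, adjusted p = 2.7e-09) and Fn1 (0.85 ± 0.093, adjusted p = 8.5e-07). Lower were Syt7 (-3.02 ± 0.11), Kctd17 (-2.53 ± 0.1), Sulf2 (-2.41 ± 0.088), Cerk (-2.39 ± 0.18) and Scd2 (-0.96 ± 0.069, adjusted p = 1.3e-10). For Egln3 (0.14 ± 0.11, adjusted p = 0.28), Idi1 (-0.05 ± 0.079, adjusted p = 0.6), Ccl2 (-0.02 ± 0.075, adjusted p = 0.87), Hip1r (-0.06 ± 0.14, adjusted p = 0.74) and Ltbp3 (0.13 ± 0.062, adjusted p = 0.075) the test did not separate the wild-type line from parental cells.

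In all, 21 of the 67 genes belong to at least 1 of the 36 gene lists used, and the other genes of those lists were tested. Counts below leave the 67 genes out. Each mutant line was compared against the empty-vector line, which gave 23.7% higher and 22.7% lower of all tested genes for T567A and 9.43% and 8.34% for T567D. Both comparisons use the same empty-vector libraries, so their values are set side by side only.

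Cholesterol synthesis, the list of Idi1, had 24 other genes. In T567A 15 were higher and 0 lower (median 0.34), in T567D 0 were higher and 15 lower (median -0.26), and in the wild-type line 0 were higher and 21 lower (median -0.45). Fdft1, squalene synthase, was at 0.37 in T567A and -0.43 in T567D, Fdps, which makes its substrate, at 0.29 and -0.50, and Dhcr7, a late enzyme, at 0.40 and -0.49, all called. Hmgcs1, an early enzyme, was at -0.73 in T567D (adjusted p = 1.9e-07) but at 0.13 in T567A, which did not pass (adjusted p = 0.099). Of the 12 other fatty acid synthesis genes beside Scd2, T567A had 7 higher and 1 lower and T567D 0 higher and 4 lower. The close relative Scd1 rose in T567A (1.14, adjusted p = 7.5e-10) and was at -0.06 in T567D (adjusted p = 0.64). Fads2, another desaturase, was at 0.35 and -0.31, both called.

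Around Trib3 and Slc7a11, the integrated stress and unfolded protein list had 29 other genes, with 15 higher and 5 lower in T567A and 3 higher and 10 lower in T567D. Atf4, the transcription factor of this response, was at 0.37 in T567A and -0.33 in T567D, Pck2 at 0.42 and -0.43, Asns, asparagine synthetase, at 0.16 and -0.39, and Cebpg at 0.37 and -0.24, all called. Manf, a protein secreted under stress of the endoplasmic reticulum, was at -0.44 and 0.18, both called. Slc7a11 also belongs to the NRF2 and antioxidant list, whose 29 other genes did not share its direction, with 6 higher and 9 lower in T567A and 3 higher and 4 lower in T567D. The chemokine list of Ccl2 and Ccl7 had 23 others, with 15 higher and 4 lower in T567A but 2 higher and 3 lower in T567D. Cxcl10 was at 2.41 in T567A and at 0.08 in T567D (adjusted p = 0.47), and Cxcl1 and Cxcl5 fell in both lines.

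Egln3 stood in the hypoxia and glycolysis list. Of its 28 other genes 16 were higher and 4 lower in T567A, where Egln3 was lowest, and 1 was higher and 10 lower in T567D, where it was highest. The glycolytic enzyme gene Eno2 was at 0.37 in T567A and -0.93 in T567D, Pdk1, which restrains entry into mitochondrial oxidation, at 0.38 and -0.67, and Pfkl at 0.31 and -0.31, all called. Car9, a further oxygen-responsive gene, fell in both lines (-1.31 and -2.21).

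Beside Fn1, Fbn1 and Ltbp3, the matrix glycoprotein list had 20 others, with 6 higher and 10 lower in T567A and 8 higher and 2 lower in T567D. Tnc, tenascin C, was at -1.54 in T567A and 0.35 in T567D, and Emilin1, an elastic fibre protein, at -0.38 and 0.20, all called, whereas Thbs1 (1.74 and 0.62) and Postn (1.79 and 1.83) rose in both. The 16 other collagen genes had 3 higher and 5 lower in T567A and 7 higher and 1 lower in T567D, with Col5a1 at -0.83 and 0.32 and Col1a1 at 0.90 and 1.18. Of the 10 other genes in the osteoblast and bone matrix list of Alpl, 8 were higher and 0 lower in T567A, among them Bmp2 (2.09) and Omd (3.13). In T567D 3 of these 10 were higher and 3 lower. The MAP kinase output list of Dusp4 had 28 others, with 2 higher and 11 lower in T567A and 3 higher and 2 lower in T567D, including Fosl1 at -0.36 in T567A and 0.25 in T567D, the latter not called (adjusted p = 0.067).

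The lists of the remaining genes gave the counts below. Snai2 was high in T567A, whereas the 34 others of the lineage transcription factor list had 3 higher and 11 lower there, with 2 higher and 3 lower in T567D. The 13 other cadherin and adhesion genes beside Ncam1 had 3 higher and 7 lower in T567A and 2 higher and 2 lower in T567D. Matrix proteases and their inhibitors, the list of Mmp19, had 30 others, with 6 higher and 16 lower in T567A and 6 higher and 5 lower in T567D. Around Ntn4 and Sema7a, the 18 other axon guidance genes had 7 higher and 7 lower in T567A and 3 higher and 2 lower in T567D. The 2 other tested genes in the list of Fabp4 had no call in T567A and 1 higher in T567D. Receptor tyrosine kinases and their ligands, with 31 tested genes outside the 67, had 9 higher and 7 lower in T567A and 7 higher and 2 lower in T567D. The actin cytoskeleton list had 22 tested genes, of which 8 were higher and 10 lower in T567A and 10 were higher and 1 lower in T567D.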

How the data were processed

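Per the labels' protocols, libraries of poly-A RNA were made with a dUTP second strand and sequenced by DNBSEQ. The authors deposited, for each of 10 libraries, a table of raw counts and a table of RPKM values over 41743 gene names. Per the submitters' processing notes the build is GRCm38. For the aligner, the counter and its annotation, the tool is not given in the sources used here.

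CPM were computed from the deposited counts, and the 67 genes were found by the rule given above. Counts of 12595 genes (filterByExpr, minimum count 10, minimum total 15) entered edgeR 4.0.16 (R 4.3.3): TMM scaling, 1 robust quasi-likelihood fit of all 10 libraries, 5 residual degrees of freedom, two-sided tests and Benjamini-Hochberg adjustment over all tested genes. The test was tried on simulated counts for wild type minus parental only, with changes placed only in genes above a set mean count. That trial does not cover genes of few counts or the way the 67 genes were chosen. No test is given for the 67 genes in the contrasts that chose them. Tests of T567A and T567D minus empty vector for other genes of the lists were added to the initial design. The genes and the 36 lists were chosen with earlier results of these data known. The named genes were, per direction, the 10 with the largest smaller shift, those in a list, the 4 largest changes each way per comparison and those at the threshold. All others of the 67, except 1 that is not reported here by name, are named with their role or in the remainder, and the other list genes were picked after their values were seen. Positions come from GENCODE M21 and promoters from RefSeq. DESeq2 1.42.0, limma 3.58.1 on the deposited RPKM values, other scalings and filters, and left-out libraries served as alternatives.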

Additional observations from a re-analysis of the deposited data

How the results depend on the processing

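The number of genes that met the rule depended on its settings: 151 at a shift of 0.3, 19 at 0.6, 109 at a minimum of 1 CPM and 24 with the deposited RPKM values in place of CPM, against 67. Of these 24, 23 were among the 67. RPKM values are on another scale than CPM, so the 2 counts are not like for like. Hip1r, for example, averaged 0.899 RPKM and 7.08 CPM in the empty-vector libraries. It was 63 with TMM-adjusted totals (59 shared with the 67), 57 to 73 with other pseudocounts, and 67 to 85 without 1 library, with 51 to 62 shared. The number of genes whose wild-type libraries lay on the T567D side was 50, and 49 both with TMM-adjusted totals and with the RPKM values. Without 1 library it was 52 to 58. With the 67 genes held fixed, leaving out a library can only keep or raise this number, so that range does not test it.

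For wild type minus empty vector, 31 of the 67 genes were called, 17 to 23 without 1 library and 22 by DESeq2. With the replicate number as a block it was 19 (replicate block), and Alpl was at 0.49 against 0.77 and not called. The labels do not say whether the numbers pair the samples. Deviations of same-numbered libraries correlated at -0.1 to -0.01 in the 4 pairs of lines that share both numbers. In the 6 pairs that share replicate 3 only, the correlations were -0.08 to 0.07, with -0.02 for wild type and empty vector. With 2 libraries per line, such values cannot settle whether same-numbered libraries were handled together. The block changed no direction. Of the 31, 11 kept their call under each of 13 alternatives. For wild type minus parental the count was 46 to 52 and for empty vector minus parental 48 to 56 over all alternatives, against 49 and 53, with the replicate block at 49 and 48. No call turned direction under any alternative tried for these 3 comparisons. The list counts for T567A and T567D minus empty vector were also made with RLE and upper-quartile scaling, chosen after seeing the data, as was the subtraction by GC content. Some counts moved. With upper-quartile scaling, T567D had 10 matrix glycoprotein and 9 collagen genes higher, against 8 and 7. It had 13 cholesterol and 8 stress genes lower, against 15 and 10. With RLE the same counts were 8, 7, 14 and 9. In T567A the counts of these lists did not change. With 2 libraries per line, changes in genes of a few CPM are the least precise.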
